A study of Mus musculus with 36 samples.

Results

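The histone mark H3K4me3 was compared between mouse embryonic stem cells grown in serum and cells kept for 3 passages in 2i, using 4 of the 36 samples of the series. All were KH2 cells, an established mouse embryonic stem cell line. The serum group (2 samples) grew in medium with fetal bovine serum and LIF on a layer of irradiated mouse feeder fibroblasts. The 2i group (2 samples) had spent 3 passages in the serum-free 2i medium, also with LIF, and all 4 samples used the same Millipore antibody to H3K4me3. The labels do not say whether the cells in 2i also grew on feeders or whether the 2 samples of a group came from separate cultures, and a part of feeder chromatin in either list was not tested.

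H3K4me3 is trimethylation of lysine 4 on histone H3. It is laid down mainly around the start sites of active or poised genes, often over CpG islands, and its widest domains lie over genes that define the cell. The inhibitors in 2i block MEK, a kinase of the FGF and ERK pathway, and GSK3, which restrains Wnt signalling. Under both inhibitors embryonic stem cells take on a more uniform state close to the naive epiblast. Nanog and Sox2 are transcription factors that sustain this state and bind chiefly at enhancers, where H3K4me3 is usually weak.

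Each condition had 1 list of peaks, called by the authors on pooled samples, so differences between the conditions have no replicate error and are given without a test. The serum list held 19284 peaks on chromosomes 1 to 19 and X, and the 3 passage list 18944. The lowest −log10 q was 10.5 in serum and 14.3 at 3 passages. Read depth is unknown, because the lists hold no counts. The cell type was not checked against marker genes, since the positions are in mm9 and no region was assigned to a gene here. For the same reason regions are named by position (mm9, counted from 1).

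Most of the mark lay in the same places in both conditions. Merging peaks that overlapped by at least 1 bp gave 22147 regions, of which 14572, or 65.8%, were called in both lists. Another 4567 were called only in serum (20.6% of all regions) and 3008 only at 3 passages (13.6%). Of the serum regions, 76.1% (exact binomial 95% interval 75.5 to 76.7, counting error only) were called again at 3 passages. Of the 3 passage regions, 82.9% (82.3 to 83.4) had been called in serum. Which class was larger depended on the threshold. With both lists limited to a −log10 q of 14.3, there were 3047 regions only in serum and 3499 only at 3 passages. With lists of equal length the counts were 4309 and 3087, and with a minimum of 20, an alternative added after seeing the data, 2492 and 2154.

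The one-sided regions were weak and narrow. Their median −log10 q was 17.4 for the serum-only regions and 19.6 for the 3 passage-only regions, against 107.0 and 101.3 for shared regions in the 2 lists. The median width was 844 bp for serum-only, 592 bp for 3 passage-only and 1874 bp for shared regions. Of the regions called only in serum, 62 (1.36%) had a −log10 q above the median of their list, and of those called only at 3 passages, 89 (2.96%).

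**Figure D1:**
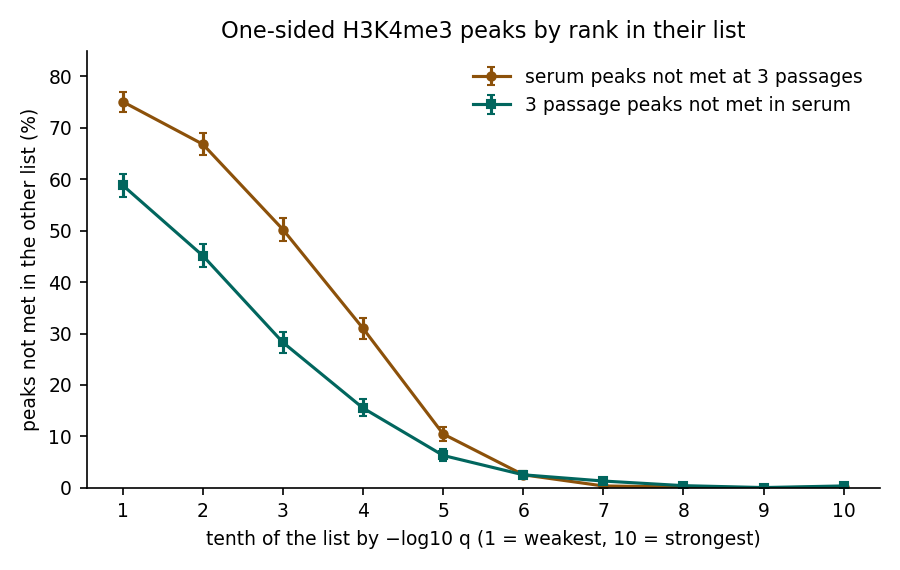
Share of peaks (vertical axis, percent) that met no peak of the other H3K4me3 list, in 10 classes of equal size by −log10 q (horizontal axis, class 1 weakest, class 10 strongest). Circles are serum peaks, squares 3 passage peaks, and bars exact binomial 95% intervals. In class 1, 75.1% of serum and 58.8% of 3 passage peaks were not met, and from class 7 upward no share passed 1.32%.

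The share of unmatched peaks was highest at the bottom of both lists, as the plot of one-sided peaks by rank shows. With each list divided by −log10 q into 10 classes of equal size, it was 75.1% in the weakest class of the serum list, 50.2% in the third and 10.5% in class 5. In the 3 passage list the same classes had 58.8%, 28.3% and 6.30%. In the strongest class, 3 of 1928 serum peaks and 7 of 1895 peaks of 3 passages were unmatched.

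Absence from a list is not absence of a call. The authors' peak numbers follow position along each chromosome in every list used, and on these chromosomes they run to 37745 in serum and to 117721 at 3 passages. The listed peaks thus carry 51.1% of the numbers in serum and 16.1% at 3 passages. Between the listed 3 passage peaks on either side of a serum-only region, a median of 4 numbers was missing, so unlisted calls may lie there. For 303 of the 4551 serum-only regions with a peak on both sides (6.66%), the numbers ran on without a gap. The same held in the serum list for 346 of 3007 3 passage-only regions (11.5%). These 303 and 346 regions are called one-sided without a number gap below.

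The strongest serum-only regions show this limit. The region on chromosome 16 from 23106330 to 23113500 was 7171 bp wide, with a fold enrichment over the control of 51.6 in serum, at the 99.99th percentile of its list. It was called again at 24 h of 2i with a fold of 38.1 over 6684 bp. In the 3 passage list 1 number was missing at this place, so the loss rests on what was listed. The second lay between 5796158 and 5803666 on chromosome 19, 7509 bp wide with a serum fold of 28.8. It was listed neither at 24 h nor at 3 passages, but 2 numbers were missing there from the 3 passage list. A listed peak of 3 passages lay 2016 bp away. The region held Nanog and Sox2 peaks of serum and a Sox2 peak of 3 passages. The region on chromosome X from 69061428 to 69063266 had a serum fold of 26.2 and a 24 h fold of 13.8. The nearest listed peak of 3 passages lay 143439 bp away. The fourth (chromosome 8, 86522232 to 86523403, serum fold 22.2) lay only 387 bp from a listed peak of 3 passages and joined it when peaks up to 1000 bp apart were merged. The last of the 5 (chromosome 18, 38839146 to 38841074, serum fold 21.7) was not listed at 24 h. In the 3 passage list 27 numbers were missing at the region on chromosome X, 1 at the fourth and 9 at the last. Among these 5, a Nanog or Sox2 peak of serum was found only at the one on chromosome 19.

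The strongest 3 passage-only region lay on chromosome 1 from 39711273 to 39714458. Its fold was 71.8 at 3 passages and 4.68 at 24 h, where the called peak was 414 bp wide against 3186 bp at 3 passages. It carried no Nanog or Sox2 peak in any list used. Next came chromosome 17 from 40630963 to 40632723, with a fold of 38.6 at 3 passages and 5.32 at 24 h. This region was bound by Nanog, Sox2 and Oct4, the partner of Sox2 at many enhancers, in every list used, those of serum included. The third, chromosome 16 from 48600864 to 48602306, went from a fold of 5.70 at 24 h to 34.1 at 3 passages and held no factor peak.

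The other 2 of the 5 strongest were neighbours on chromosome 7, from 52380108 to 52384300 and from 52377758 to 52379941, with folds of 33.4 and 31.9. Both were already strong at 24 h, with folds of 24.5 and 20.3, near the top of that list. Both held a Nanog peak at 3 passages and in 1 of the 2 Nanog lists of 24 h. Neither held one in either serum Nanog list, and both held a serum Sox2 peak that was no longer called at 3 passages. In each of the 5 places 1 to 4 numbers were missing from the serum list.

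Most one-sided regions of either kind were not listed at 24 h of 2i. The 24 h H3K4me3 list (2 samples, 17435 peaks) covered 65.2% of all 22147 regions and 90.9% of the shared ones. It held 319 of the 3008 3 passage-only regions, or 10.6% (9.53 to 11.8), and 865 of the 4567 serum-only regions, or 18.9% (17.8 to 20.1). The 24 h list carries 41.9% of its peak numbers, so unlisted calls may lie at the others, and all 5 of the strongest 3 passage-only regions were listed at 24 h. The share moves with the threshold of the lists. With the minimum −log10 q of 20 it was 28.2% for the 3 passage-only and 41.2% for the serum-only class. That minimum was set on the serum and 3 passage lists, and the 24 h list was kept whole. Regions whose peak in the other list lay under 20 then counted as one-sided, and 12855 stayed shared. Among regions without a number gap the share was 3.47% and 3.96%.

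Nanog, a factor that holds these cells back from differentiation, was called more often at gained than at lost regions. Across all 22147 regions, 14.4% held a Nanog peak of 3 passages. Among 3 passage-only regions the share was 26.6% (799 of 3008), and among serum-only regions 6.35% (290 of 4567). The odds ratio was 5.33 (95% interval 4.61 to 6.18; Fisher's exact test, two-sided, adjusted p = 1.54e-130 over 4 tests by Benjamini and Hochberg's method). Regions are not replicates, so this and the following p-values describe these lists and not the spread between cultures.

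Sox2, which binds DNA together with Oct4, showed the same order. Its list of 3 passages, which has 1 sample in the labels, met 4.87% of all regions, 11.2% of 3 passage-only regions (338 of 3008) and 2.01% of serum-only regions (92 of 4567). The odds ratio was 6.16 (4.85 to 7.88, exact adjusted p = 4.97e-64).

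Part of the gained regions held a factor peak of serum, where the mark was not listed, at shares somewhat above those of all regions. Serum Nanog peaks met 15.2% of all regions, 19.6% of 3 passage-only regions (590 of 3008) and 8.21% of serum-only regions (375 of 4567), with an odds ratio of 2.73 (2.37 to 3.14, exact adjusted p = 1.09e-46). Serum Sox2 peaks met 9.9% of all regions, 12.9% of 3 passage-only regions (389 of 3008) and 5.41% of serum-only regions (247 of 4567), with an odds ratio of 2.60 (2.19 to 3.08, exact adjusted p = 4.72e-30). Among shared regions the shares were 16.6% for serum Nanog and 10.7% for serum Sox2. Regions called only in serum had the smallest share with either factor, also in the serum factor lists.

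**Figure D2:**
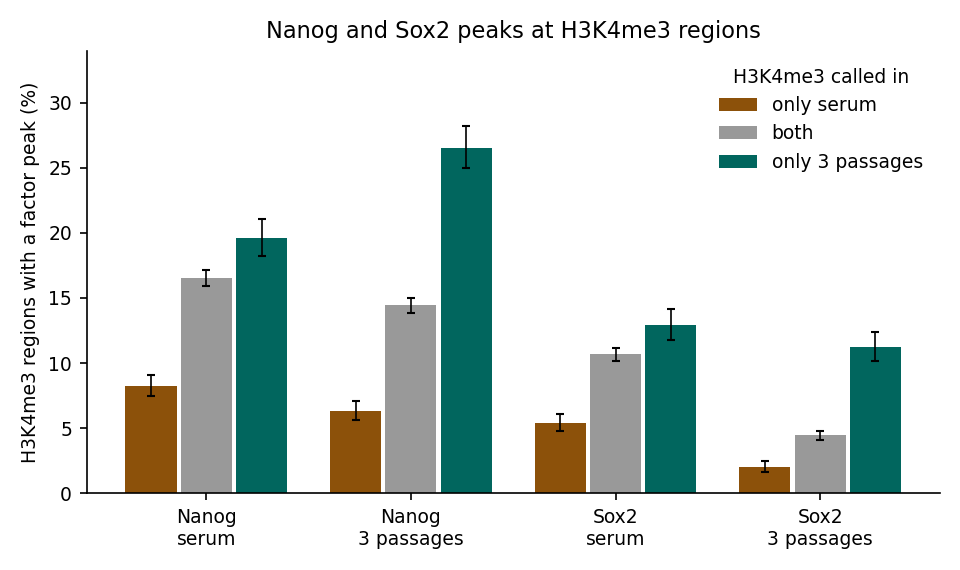
Share of H3K4me3 regions (vertical axis, percent) that held a peak of each factor list (horizontal axis), for regions called only in serum, in both lists and only at 3 passages. Bars are shares with exact binomial 95% intervals. For all 4 lists the 3 passage-only regions have the largest share and the serum-only regions the smallest, from 26.6% against 6.35% for Nanog at 3 passages to 12.9% against 5.41% for Sox2 in serum.

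The same order was found in each of the 5 width and 4 rank classes examined, for all 4 factor lists. Among regions of 701 to 1000 bp, Nanog of 3 passages met 31.1% of 614 3 passage-only regions and 5.18% of 1468 serum-only regions. A fixed window of 500 bp on either side of the H3K4me3 summit gave an odds ratio of 5.63 for this list. By rank, the gap was larger among the stronger regions. In the lowest 10 percentiles Nanog of 3 passages met 20.4% of 3 passage-only and 7.59% of serum-only regions, and above the 40th percentile 35.1% of 208 and 4.92% of 264.

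**Figure D3:**
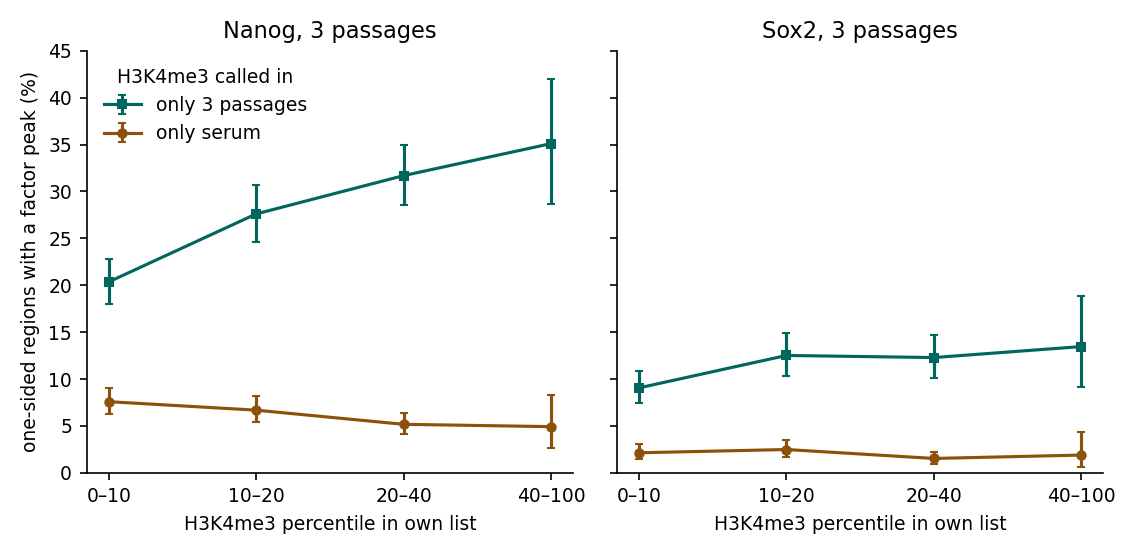
Share of one-sided H3K4me3 regions (vertical axis, percent) with a Nanog (left) or Sox2 (right) peak of 3 passages, by percentile of the region in its own H3K4me3 list (horizontal axis). Squares are 3 passage-only and circles serum-only regions, with exact binomial 95% intervals. The Nanog share among 3 passage-only regions goes from 20.4% to 35.1% across the bins, while that of serum-only regions stays between 4.92% and 7.59%.

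The comparison was repeated where the numbers left no room for an unlisted H3K4me3 call in the other list, an alternative added after seeing the data. Of the 346 3 passage-only regions without a number gap, 87 held a Nanog peak of 3 passages, against 9 of the 303 serum-only ones (odds ratio 10.97, 5.36 to 25.2, exact adjusted p = 1.91e-16). For Sox2 of 3 passages the counts were 28 of 346 and 2 of 303 (odds ratio 13.3, 3.28 to 115.5, exact adjusted p = 3.87e-06). For serum Nanog they were 47 of 346 (13.6%) and 13 of 303 (4.29%), against 15.2% of all regions, and for serum Sox2 27 (7.80%) and 9 (2.97%), against 9.9%. The gained regions thus exceeded the lost ones in all 4 lists, but with the serum lists both lay below the share over all regions.

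The factor lists were next compared with each other at the same regions. Of 3008 3 passage-only regions, 526 held Nanog in both lists, 273 only at 3 passages and 64 only in serum. Of 4567 serum-only regions, 230 held it in both, 60 only at 3 passages and 145 only in serum. Where Nanog was called in 1 of its lists only, that list was the one of 3 passages at 81.0% of the 337 3 passage-only regions and at 29.3% of the 205 serum-only regions, against 45.6% over all regions of this kind (odds ratio 10.3, 6.74 to 15.8, exact adjusted p = 2.84e-33 over 2 tests). This test and the next were added after seeing the data.

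For Sox2 the shares were 36.1% of 183 3 passage-only regions and 3.59% of 167 serum-only regions, against 10.7% over all (odds ratio 15.1, 6.26 to 43.9, exact adjusted p = 2.12e-15). The levels of these shares depend on the lengths of the factor lists, 25513 peaks in serum and 33184 at 3 passages for Nanog, and 13116 and 8749 for Sox2. Without a number gap, the counts were 44 of 48 against 3 of 10 for Nanog and 10 of 19 against 0 of 7 for Sox2 (Fisher's exact test, adjusted p = 0.000212 and 0.0227). New Nanog and Sox2 calls were thus more frequent, relative to lost ones, where H3K4me3 was gained than where it was lost. As over all regions, where 77.8% held no Nanog or Sox2 peak of serum or 3 passages, most one-sided regions held none, with 2112 of the regions gained (70.2%) and 4069 of those lost (89.1%).

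At a small set of regions the mark and both factors were listed at 3 passages and not in serum. Nanog and Sox2 peaks called at 3 passages and not in serum were found at 20 of the 3008 3 passage-only regions (0.665%), 26 of the shared and 2 of the serum-only regions, or 0.217% of all regions. The one with the highest fold, 14.8, lay on chromosome 16 from 94981700 to 94982475 and was already called for H3K4me3 at 24 h with a fold of 10.9. The next were on chromosome 6 from 82656368 to 82658362 (fold 13.3), on chromosome 11 from 113451773 to 113453524 (10.1), on chromosome 15 from 98056075 to 98056670 (8.16) and on chromosome 6 from 91576261 to 91576991 (8.07). None of these 4 was called for H3K4me3 at 24 h, though all 4 held a 24 h Nanog peak with at least 1 of the 2 antibody lots. The region on chromosome 15 had no number missing from the serum H3K4me3 list, and the other 4 of the 5 had 1 or 2. With peaks up to 1000 bp apart joined, the one on chromosome 6 from 82656368 fell together with a serum peak. At 4 of the 5, Nanog was called in serum cells sorted as GFP-high with the second lot, the exception being the one on chromosome 11. The new Nanog calls thus hold for unsorted serum cells with the first lot, and lot and sorting cannot be told apart.

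The mark, Nanog and Sox2 were all called only in serum at 37 of the 4567 serum-only regions (0.81%). Both factors were called only in serum at 1.21% of shared and 1.03% of all regions, so this state was not more frequent where the mark was lost. The region with the highest fold, 10.6, was on chromosome 5 from 37636373 to 37638332. It was still called for H3K4me3 at 24 h, with a fold of 5.87, when neither factor was listed. The next, on chromosome 3 from 84459431 to 84460952 (fold 9.26), held Oct4 in serum and at 24 h. The others lay on chromosome 4 from 119486573 to 119488177 (9.11), chromosome 11 from 101649148 to 101650286 (8.65) and chromosome 13 from 51663919 to 51665283 (8.59). At 24 h they kept Nanog in the list of the first antibody lot and not in that of the second. The last of them also kept H3K4me3 at that time. The one on chromosome 11 held Oct4 in serum and not at 24 h, and Nanog in GFP-high serum cells. All 5 had 4 or more numbers missing from the 3 passage list.

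At the shared regions the order of strength was largely preserved. Spearman's rho between the −log10 q of serum and of 3 passages was 0.84 across 14572 regions, which share libraries and are not independent. Rank was expressed as the percentile within each list, since depth can scale −log10 q differently in each list. The median change was -1.77 percentile points, with quartiles of -11.3 and 6.57. Regions that ranked over 25 points higher at 3 passages numbered 669 (4.59%), and those over 25 points lower 871 (5.98%). This order turned around, to 7.07% and 3.43%, when both lists were limited to a −log10 q of 14.3.

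Shared regions with Nanog or Sox2 at 3 passages tended to rank higher in 2i. The median change was 2.89 points at the 620 regions with Nanog only at 3 passages and 2.30 at the 1482 with Nanog in both. It was -1.70 at the 930 regions with Nanog only in serum and -2.67 at the 11540 with none. A change of over 25 points upward was seen at 11.3% of the first group and 3.55% of the last, and downward at 2.58% and 6.59%. The order of the 4 medians was not the same in regions of lower and higher mean rank, but at mean ranks up to and above the 50th percentile alike, the 2 groups with Nanog at 3 passages lay above zero and the other 2 below.

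Sox2 gave a like picture with fewer regions. The median was 6.14 points at the 80 shared regions with Sox2 only at 3 passages, 3.39 at the 568 with Sox2 in both, -0.644 at the 988 with Sox2 only in serum and -2.12 at the 12936 with none. At 26.2% of the 80, the rank was over 25 points higher, against 4.59% of all shared regions. These are descriptions of the lists, without a test.

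**Figure D4:**
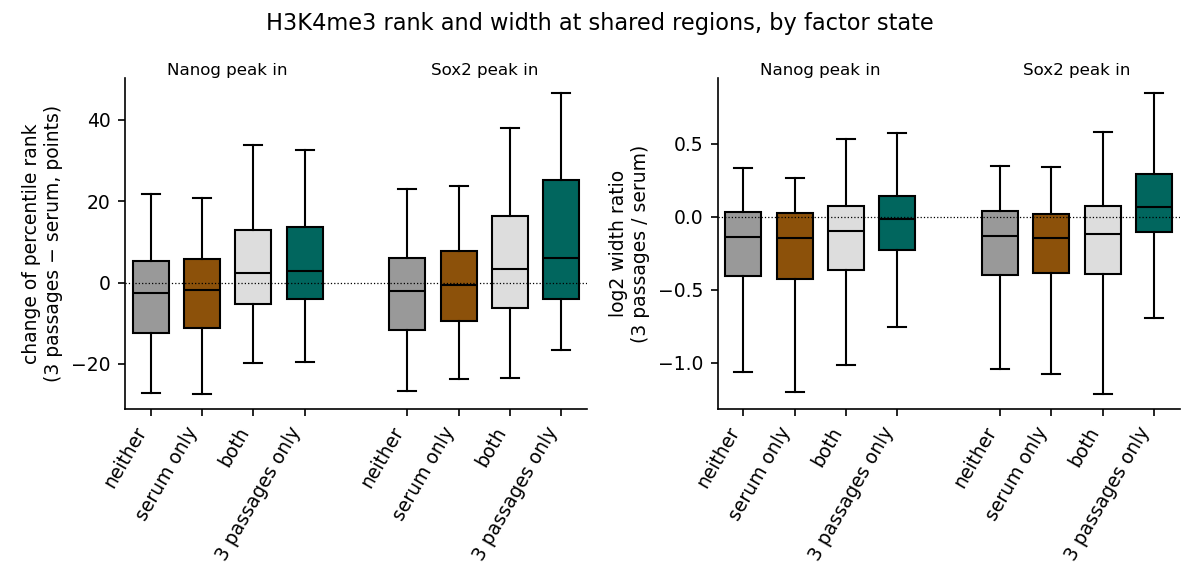
Change of H3K4me3 percentile rank (left, points) and log2 ratio of peak width (right), 3 passages against serum, at shared regions grouped by where a Nanog or Sox2 peak was called. Boxes span the quartiles with the median as a line, and whiskers reach the 5th and 95th percentiles. The medians with a factor peak at 3 passages lie above zero on the left, and only regions with Sox2 at 3 passages alone have a median above zero on the right.

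Rank changes of single regions were ranked among the 13168 shared regions with 1 peak of each list. The largest upward change among them was on chromosome 16 from 93792389 to 93795393. There the fold went from 5.17 in serum to 5.98 at 24 h and 42.1 at 3 passages, the rank by 85.9 points and the peak from 1194 to 3005 bp, and Nanog and Sox2 were both called at 3 passages and not in serum, though Nanog was called in GFP-high serum cells with the second lot. The second, chromosome 2 from 59886596 to 59888834, went from a fold of 4.05 to 22.2 (80.4 points) at a place where Nanog, Sox2 and Oct4 were called in every list used. The other 3 carried no factor peak in any list. They were on chromosome 18 from 57532942 to 57534550 (fold 7.59 to 38.2), chromosome 17 from 71273228 to 71274811 (5.39 to 27.6) and chromosome 13 from 75977222 to 75979003 (5.32 to 22.8).

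All 5 rises start from serum peaks with a −log10 q of 13.0 to 19.5, close to the bottom of that list. With both lists limited to 14.3, those on chromosomes 2 and 13 were no longer shared, and at a minimum of 20 none of the 5 was.

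The largest downward change, by -63.8 points, was on chromosome 9 from 50336100 to 50336973, where the fold was 16.6 in serum, 5.60 at 24 h and 3.72 at 3 passages. On chromosome 8 from 86724248 to 86728454 the fold was 20.6 in serum and 4.56 at 3 passages, and the peak 4207 and 830 bp wide. The third, chromosome 4 from 33117350 to 33119420 (fold 20.3 and 4.11), had a Nanog peak at 3 passages and none in serum with the first lot, against the general order. On chromosome 11 from 4846272 to 4848550 the fold was 35.8 and 6.33, and on chromosome X from 7782077 to 7784411 it was 19.8 and 5.18. The region on X was bound by Nanog, Sox2 and Oct4 in every list used, so binding by all 3 did not always go with a higher rank. Only the region on chromosome 11 was still shared at a minimum −log10 q of 20.

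Peaks were somewhat narrower in 2i. At shared regions the summed peak width had a median of 1778 bp in serum and 1565 bp at 3 passages, and the median log2 ratio was -0.13 (quartiles -0.40 and 0.04), a ratio of 0.912. Of the 14572 regions, 10025 (68.8%) were narrower at 3 passages. Over 2-fold narrower were 827 (5.68%), and over 2-fold wider 70 (0.48%). Peak width as called depends on depth and threshold, whose part in this was not tested. The 24 h peaks were narrower still, with a median ratio of 0.812 to serum, and those of 3 passages were wider than those of 24 h, with a ratio of 1.10.

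**Figure D5:**
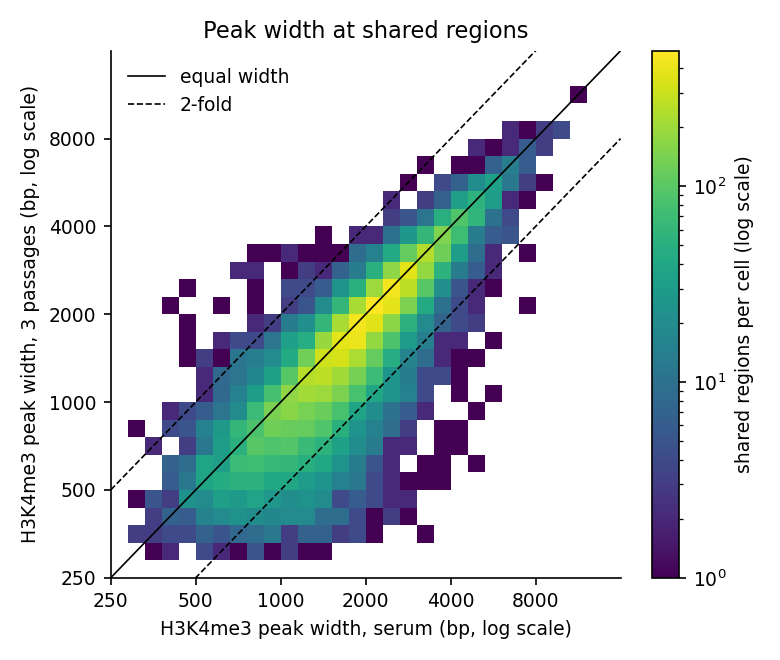
Summed H3K4me3 peak width at the 14572 shared regions, serum on the horizontal and 3 passages on the vertical axis (bp, log scales). Colour gives the number of regions per cell on a log scale, the solid line equal width and the dashed lines a 2-fold difference. Most regions lie close to the solid line, and 827 lie below the lower dashed line against 70 above the upper one.

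Width differed most at weak regions. In the lowest of 4 equal classes by mean rank the median log2 ratio was -0.35, and 15.4% were over 2-fold narrower. In the highest class these values were -0.04 and 0.22%. The broadest serum domains differed about as much as shared regions in general. At the 982 shared regions whose serum width reached the widest 5% of the serum list (3527 bp or more), the median width was 4221 bp in serum and 3958.5 bp at 3 passages, with a median log2 ratio of -0.11, and 42 (4.28%) were over 2-fold narrower.

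Both lists had equal numbers of peaks at 90.6% of the shared regions, and where the numbers differed the larger was mostly that of 3 passages. The part of depth and threshold in this was not tested. At 1263 shared regions (8.67%) the 3 passage list had more peaks than the serum list, and at 110 (0.755%) fewer. At the 1263 the summed width had a median of 2673 bp in serum and 2342 bp at 3 passages. Regions with a factor peak only at 3 passages had width ratios closer to or above 1. The median log2 ratio was -0.01 with Nanog only at 3 passages, against -0.14 with none and -0.15 with Nanog only in serum. At the 80 regions with Sox2 only at 3 passages it was 0.07, and 54 of them were wider.

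The 5 strong shared peaks that widened most were on chromosome 6 from 85321545 to 85324662 (1130 to 3118 bp), chromosome 6 from 119364147 to 119367744 (1360 to 3598 bp), chromosome 1 from 186667408 to 186670787 (1417 to 3380 bp), chromosome 11 from 113060915 to 113063306 (1130 to 2387 bp) and chromosome 1 from 36297981 to 36301666 (1769 to 3686 bp). None held a peak of the 4 tested Nanog and Sox2 lists, as was so at 75.8% of all shared regions. Only the second also moved over 25 points in rank, by 39.2, with a fold of 15.6 in serum and 33.3 at 3 passages. With peaks up to 1000 bp apart joined, the log2 width ratio of the first went from 1.46 to 1.19.

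Of the 5 that narrowed most, 4 held a serum Nanog peak, against 16.6% of all shared regions. At 3 of the 4 the rank changed by less than 10 points. Across shared regions, over 2-fold narrower were 7.20% with Nanog only in serum and 5.33% with Nanog in both lists. The share was 3.39% with Nanog only at 3 passages and 5.72% with none, so these 5 do not stand for the whole. On chromosome 7 from 20353697 to 20357224 the peak went from 3528 to 820 bp, on chromosome 1 from 59538921 to 59543848 from 4928 to 1494 bp, and on chromosome 6 from 122289920 to 122291946 from 2027 to 621 bp. The last of these was bound by Nanog, Sox2 and Oct4 in every list used. With peaks up to 1000 bp apart joined, the log2 width ratio went from -1.72 to -1.21 at this region of chromosome 1. On chromosome 6 it went from -1.71 to -1.51. On chromosome 4 from 58923594 to 58926101 the peak went from 2508 to 480 bp although its width at 24 h was 2341 bp. On chromosome 18 from 38755832 to 38763213, the fourth with serum Nanog, a domain of 7382 bp in serum was 2266 bp at 3 passages, and its rank was 37.0 points lower.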

How the data were processed

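Chromatin immunoprecipitation followed by sequencing was used for H3K4me3, Nanog, Sox2 and Oct4. Build mm9 and the tools MACS2, BWA 0.5.7 and Bowtie 0.12.7 appear in the submitters' processing notes, with no role given for each. Going by the peak names in the deposited lists, the authors called peaks on pooled replicates against a control. The authors deposited a fold enrichment per peak, a ratio over the control, and a −log10 q. The deposited summit offset was used for 1 alternative. No source used here says how listed peaks were chosen from the numbered calls.

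From these 13 lists, peaks on chromosomes 1 to 19 and X were kept, leaving out 25 peaks in serum and 34 at 3 passages. Peaks overlapping by 1 bp were merged. A region's −log10 q, fold and rank are those of its strongest peak, and its width in a list is summed over its peaks. Factor overlap was tested with Fisher's exact test in scipy 1.17.1 (Python 3.11.15), with conditional 95% intervals and Benjamini-Hochberg adjustment, checked on simulated lists. Shares carry Clopper-Pearson intervals. The members, lists and rules were chosen with earlier results of these data known.

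Named were the 5 regions with the highest fold in each one-sided class, and the 5 with the highest fold that gained or lost both factors with the mark. Among shared regions with 1 peak of each list, the 5 with the largest rank change and the 5 with the largest width change each way were named. For the width change, both peaks also had to lie above their list's median −log10 q. Alternatives were thresholds, list length, overlap, joining of peaks, chromosome X, a summit window and the rank measure. The Nanog list of TKO cells and the RNA, H3K27me3 and whole-cell extract samples were not used.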

Additional observations from a re-analysis of the deposited data

How the results depend on the processing

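Each condition had 1 list, so no library could be left out. No paired analysis was possible because the replicate numbers of the labels do not appear in the pooled lists. The 6 odds ratios kept their direction and stayed below an adjusted p of 0.05 under the alternatives run, 11 for each. Their ranges were 2.70 to 3.51 for serum Nanog, 5.25 to 10.97 for Nanog of 3 passages, 2.55 to 3.15 for serum Sox2, 5.96 to 13.3 for Sox2 of 3 passages and 9.82 to 25.7 for new over lost Nanog peaks, with the highest adjusted p, 0.00915, for serum Sox2 among regions without a number gap. For new over lost Sox2 peaks it was 11.9 to 33.5 under the 10 alternatives with a finite ratio. Without a number gap no finite ratio could be given, with 10 of 19 against 0 of 7 (Fisher's exact test, adjusted p = 0.0227). A minimum −log10 q of 10 removed no peak. A minimum of 20, added after seeing the data, left 2492 serum-only regions, a median log2 width ratio of -0.13, a rho of 0.82, 6.65% and 5.38% of shared regions over 25 points higher and lower, and 41.2% and 28.2% of serum-only and 3 passage-only regions called at 24 h. With both lists at the larger lowest −log10 q these were 7.07% and 3.43%, and 24.98% and 14.3%. At equal length 5.53% were over 25 points lower. Ranking by fold gave a rho of 0.78, with 6.67% higher and 9.81% lower. With all 3 H3K4me3 lists at one length, 27.4% and 16.9% were called at 24 h, and without a number gap 3.96% and 3.47%. Thresholds leave fewer peaks, and a region whose peak in 1 list is cut then counts as one-sided. Apart from this, the cause was not tested. Depth is unknown, so weak regions missing from a list may lie just under its threshold.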

Other observations

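Other factor lists of the series met more of the 3 passage-only than of the serum-only H3K4me3 regions. Nanog peaks of GFP-high serum cells, taken with a second antibody lot (1 sample), met 21.4% of the 3 passage-only and 5.26% of the serum-only regions, against 10.9% of all 22147 regions. Nanog peaks of that lot at 24 h of 2i (1 sample) met 20.5% and 3.28%, against 8.40% of all. With the first lot at 24 h (2 samples) they met 27.3% and 10.7%, against 24.6% of all and 28.4% of shared regions, so in that list the 3 passage-only regions were close to the share over all. Sox2 peaks at 24 h (2 samples) met 13.2% and 2.85%, against 6.72% of all. Oct4 peaks met 7.28% and 2.04% in serum, against 3.87% of all, and 10.1% and 1.75% at 24 h of 2i, against 4.57%. These overlaps were not tested.

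Where Nanog was called in both of its lists, its own rank was compared between them. The median change, 3 passages minus serum, was 5.36 percentile points at the 526 such regions called for H3K4me3 only at 3 passages, -4.57 at the 230 serum-only and -1.35 at the 1482 shared regions. The factor lists differ in length, which sets where zero lies, so only the order of the classes can be read. With both Nanog lists at equal length, an alternative added after seeing the data, the medians were 1.10 at 495, -7.55 at 194 and -5.06 points at 1200 regions. For Sox2 they were -2.19, -16.8 and -13.1 points as deposited and 1.81, -9.40 and -6.56 points at equal length, in the same order of classes. The 3 passage-only regions had the highest and the serum-only regions the lowest median in all 4 cases, without a test.

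Chromosomes differed in the balance of losses and gains, which were 4567 serum-only and 3008 3 passage-only regions in all. Chromosome 7 had 394 serum-only and 162 3 passage-only regions, the largest ratio (2.43) of the 20 chromosomes, and chromosome 13 had 156 and 173, the only ratio below 1 (0.902). Chromosome X had the largest share of shared regions, at 72.9% of 620. The 452 shared regions on X had a median rank change of 3.34 percentile points, against -1.94 on the autosomes, and 60.6% of them ranked higher at 3 passages, against 43.0%. This difference was not tested.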
